A study of Arabidopsis thaliana with 208 samples.

Results

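The plants described here are Arabidopsis thaliana of the T-DNA insertion line SALK_070847C, set against the wild type Col, with roots grown on 10 mM KNO3. The line has 4 libraries at this concentration and so has Col. Each library is the sum of 2 sequencing runs that the series lists as separate samples, so these are 8 and 8 of its 208 samples. They were chosen by their labels and by no measured value. A T-DNA insertion is a piece of bacterial DNA lodged in the plant genome, often in or near a gene. The labels name the line and not the gene. That the stock is listed for RAV2 is general knowledge of the collection. The RAV2 level below shows whether that transcript is low and not where the insertion lies.

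The series grew Col and 12 insertion lines on medium with 1 or 10 mM KNO3 and counted transcripts in roots 9 days old. All media held the same sucrose and 10 mM KCl, so potassium differs between the concentrations together with nitrate. Per the labels, seedlings of 2 plates were combined for each biological replicate, and the line carries no second allele or complemented control here, so the insertion and any other difference in the genome of this 1 line cannot be told apart. A further set of 28 libraries, those of the other 7 SALK lines at 10 mM (SALK_012253, SALK_015182, SALK_035980, SALK_085964C, SALK_094437C, SALK_100002 and SALK_146141), served as a second reference, because these plants come from the same collection and also carry an insertion.

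RAV2, also called TEM2, belongs to the small RAV family of plant transcription factors, which join an AP2 domain and a B3 domain in 1 protein and bind DNA with both. Its closest relative is TEM1, and in Arabidopsis leaves the pair is known for holding back flowering by repressing FT and genes of gibberellin synthesis. RAV1 is known as a repressor of growth, and EDF3 was described as an ethylene-responsive member. The NGA genes carry the B3 domain without the AP2 domain and shape leaf margins and the gynoecium.

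Libraries of SALK_070847C at 10 mM held between 3981966 and 7908170 counts and those of Col between 7471112 and 12321584. Replicate 1 of SALK_070847C was the shallowest library of the series. Values are CPM, counts scaled to 1 common library total, with TMM factors, which lay between 0.983 and 1.00 in SALK_070847C and between 0.962 and 1.01 in Col. Root markers were present: all 17 endodermis and suberin genes listed could be tested, and their summed level lay between 895 and 1104 CPM in SALK_070847C and between 1018 and 1087 CPM in Col.

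RAV2 itself was low in every library of the line. It stood at 8.35, 6.12, 8.72 and 7.93 CPM in SALK_070847C, against 38.8, 36.0, 31.2 and 35.4 CPM in Col. The groups did not overlap and lay far apart. The mean was 7.78 ± 1.15 CPM in SALK_070847C and 35.3 ± 3.14 CPM in Col (SD, n = 4 each), a log2 change of -2.19 ± 0.22 (SE), or 4.55-fold lower in the line (adjusted p = 8.92e-12 by Benjamini-Hochberg, from the quasi-likelihood test of edgeR). In the 28 libraries of the other 7 SALK lines RAV2 ran from 21.6 through a median of 33.9 to 53.2 CPM, so all 4 libraries of SALK_070847C lay below every one of them, with a log2 change of -2.10 ± 0.19 (adjusted p = 4.56e-14). Among the line means at 10 mM, SALK_070847C was the lowest of 13, and the next was GABI_699B09 at 24.6 CPM. The libraries read tags near the 3′ end of transcripts, so these values count what reaches that end and say nothing of the part of the transcript before the insertion. In whole roots, fewer cells that express a gene and less RNA per cell cannot be told apart, here and for every gene below.

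**Figure D1:**
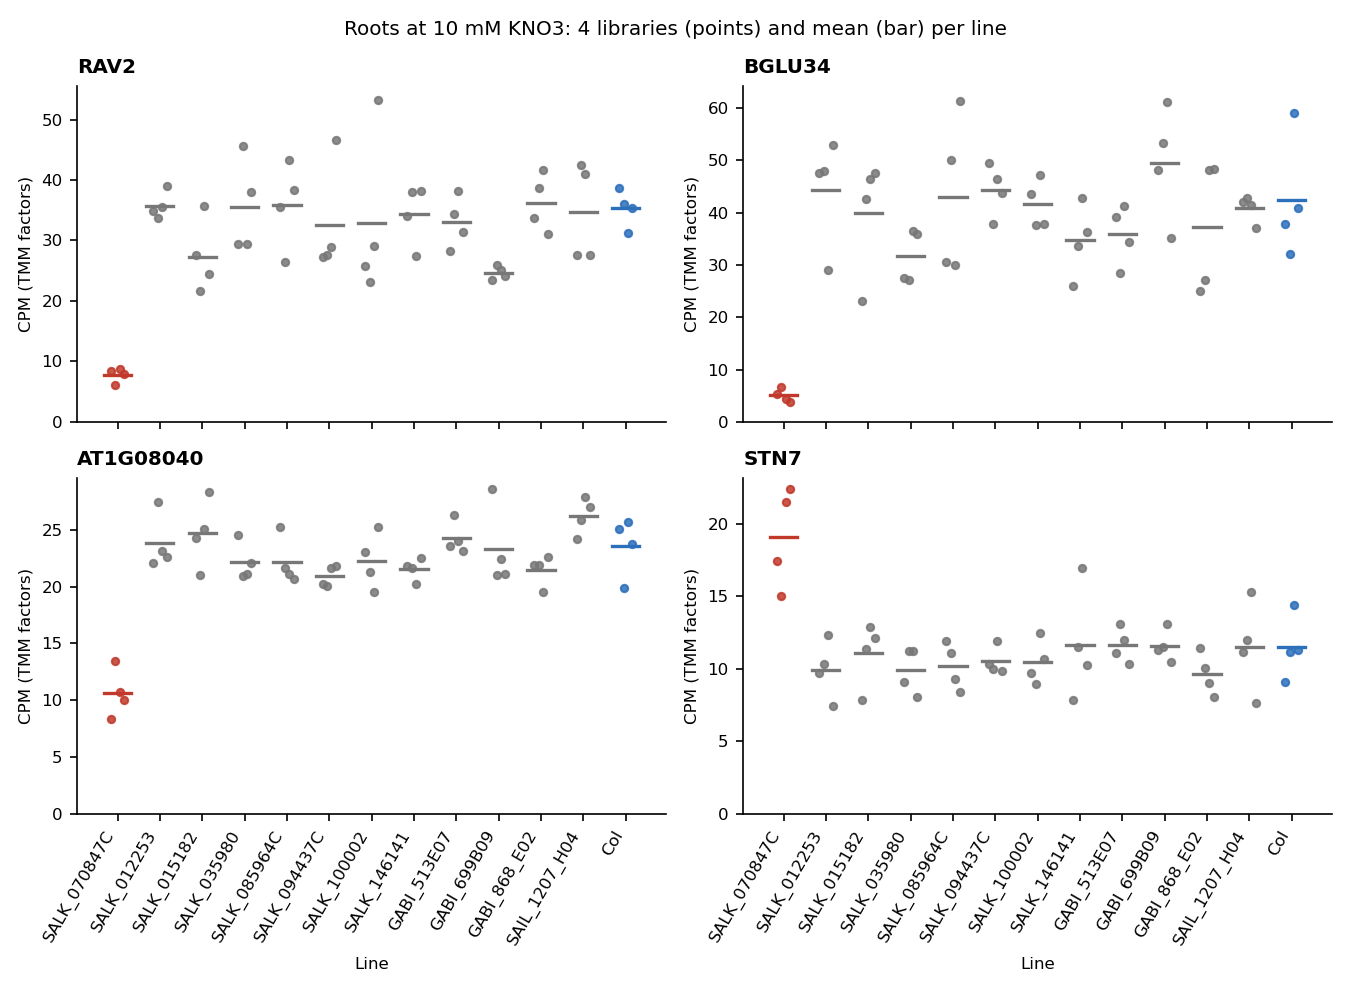
CPM (linear axes from 0) of RAV2, BGLU34, AT1G08040 and STN7 in roots at 10 mM KNO3 for each of 13 lines, with SALK_070847C in red at the left, Col in blue at the right and the other lines in grey; points are the 4 libraries and bars their mean. The 4 red points of RAV2, BGLU34 and AT1G08040 lie below all other points, while for STN7 they lie above all 4 Col points and 3 of them above every other library.

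Of the 19664 nuclear genes tested, 7 passed the threshold of 0.05 on the adjusted p against Col at 10 mM (0.0356%), 3 of them higher in SALK_070847C and 4 lower. Without adjustment, 1368 genes (6.96%) had p under 0.05. The median log2 change over all genes was -0.01. Besides RAV2, the lower genes were BGLU34, AT1G08040 and ARP9, and the higher ones were AT3G25150, AT5G35935 and BGLU40. All 7 had groups without overlap: every library of the line lay on the same side of every Col library, which was so for 260 genes (1.32%) above Col and for 352 genes (1.79%) below it over the whole table.

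BGLU34, also called TGG4, showed the largest fall of these. It encodes a myrosinase of the root, an enzyme that splits glucosinolates, the sulfur-containing defence compounds of cabbage relatives. It stood at 5.31, 6.73, 4.42 and 3.69 CPM in SALK_070847C, against 37.8, 32.2, 59.0 and 41.0 CPM in Col. The log2 change was -3.08 ± 0.26 (adjusted p = 7.81e-16), or 8.48-fold lower in the line, a larger fall than that of RAV2. Against the other 7 SALK lines, whose libraries ran from 23.2 through 40.3 to 61.4 CPM, it was -2.99 ± 0.23 (adjusted p = 4.76e-18). BGLU34 lies on the same chromosome as RAV2 but is not among its near neighbours.

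BGLU35, also called TGG5, is the closest relative of BGLU34 and a root myrosinase as well. Tags that fit both genes could have been assigned to either, so the split between them is uncertain. BGLU35 stood at 57.7, 57.8, 48.5 and 60.2 CPM in SALK_070847C, against 48.7, 40.9, 68.9 and 64.9 CPM in Col, and the groups overlapped. Its log2 change was 0.01 ± 0.21, with a 95% interval between -0.40 and 0.42. The sum of both genes was 63.0, 64.5, 53.0 and 63.9 CPM in SALK_070847C, against 86.5, 73.0, 127.9 and 105.9 CPM in Col. These groups still did not overlap. In the other 7 SALK lines the sum ran from 59.1 through a median of 94.1 to 156.9 CPM. Only the 53.0 CPM of SALK_070847C lay below that range, and the remaining sums of the line lay within it. BGLU35 and the genes beside BGLU34 were chosen after their values were seen. Of the tested genes next to BGLU34, DYW1 (an RNA-editing factor of the pentatricopeptide repeat family), ATPUP20 and PUP19 (purine permease genes by name) and AT1G47640, none passed the test, with log2 changes between -0.38 and 0.10.

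No listed gene of the glucosinolate pathway around this enzyme was called. None of the 15 indole glucosinolate genes tested passed, and neither did any of the 12 aliphatic ones. Their median log2 changes were 0.01 and 0.04. The largest rise among the indole genes was CYP79B2, which makes the oxime from tryptophan, at 0.47 (adjusted p = 0.587), and the largest fall was the regulator MYB122 at -0.38.

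AT1G08040, annotated as a protein of the DUF707 family, was the third gene low against both references. It stood at 8.35, 13.5, 10.74 and 9.98 CPM in SALK_070847C, against 25.1, 19.9, 25.7 and 23.8 CPM in Col. The log2 change was -1.13 ± 0.12 (adjusted p = 9.51e-11), or 2.19-fold lower in the line. The 28 libraries of the other SALK lines ran from 19.5 through 21.8 to 28.3 CPM, all above the line, with a log2 change of -1.06 ± 0.10 (adjusted p = 2.02e-13). Of its tested neighbours, GATA11, TPST (tyrosylprotein sulfotransferase), AT1G08050 and MOM, chosen after their values were seen, none passed, with log2 changes between 0.01 and 0.17. RAV2, BGLU34 and AT1G08040 were the only genes called in the same direction against both Col and the other 7 SALK lines. These 2 comparisons share the 4 libraries of SALK_070847C. All of these genes lie on chromosome 1, and whether that bears on their falls was not tested.

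**Figure D2:**
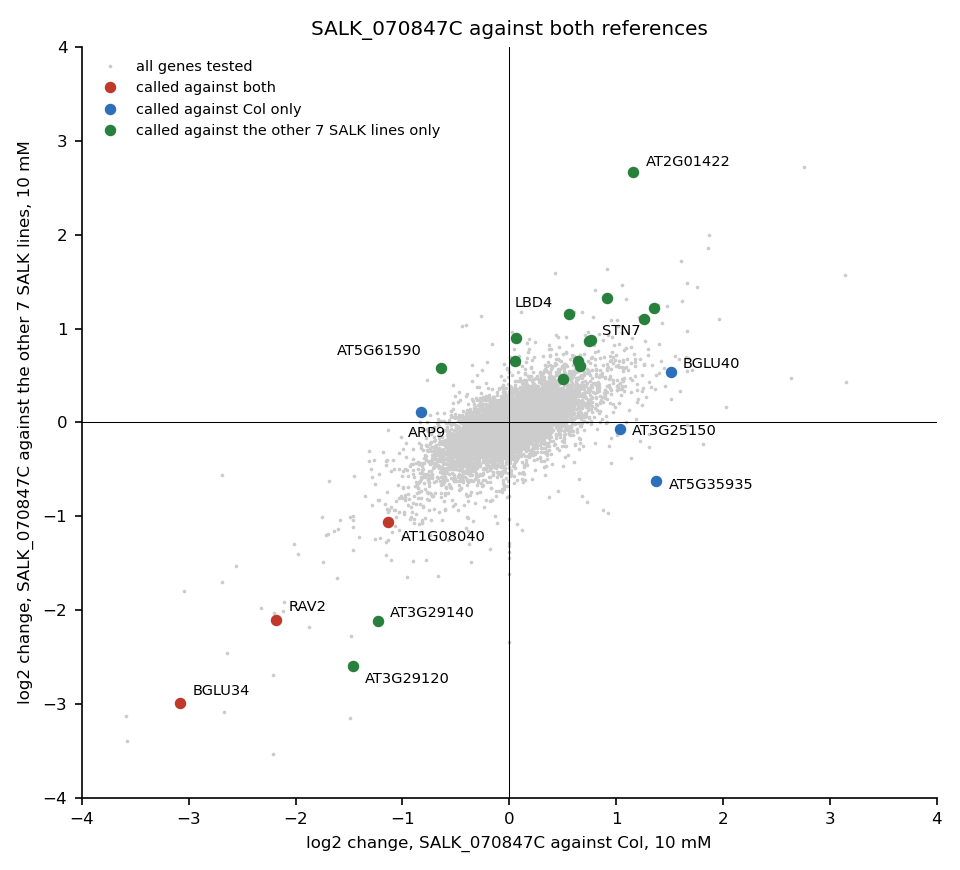
Log2 change of SALK_070847C at 10 mM against Col (horizontal) and against the other 7 SALK lines (vertical) for all genes tested (grey, 2 genes lie outside the axes) and for called genes (colours). RAV2, BGLU34 and AT1G08040 are far below 0 on both axes, whereas AT3G25150 and ARP9 lie near 0 on the vertical one; both axes use the same 4 libraries of SALK_070847C.

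The other 4 genes called against Col were not called against the other SALK lines. AT3G25150, which encodes a protein with a nuclear transport factor 2 domain and an RNA-binding domain, stood at 107.3, 87.8, 90.5 and 69.1 CPM in SALK_070847C, against 46.2, 39.9, 44.9 and 41.9 CPM in Col (log2 change 1.03 ± 0.16, adjusted p = 4.63e-05). Yet the other 7 SALK lines ran from 51.4 through 94.8 to 116.7 CPM, and against them the log2 change was -0.07 ± 0.12 (adjusted p = 1). Col was the lowest of the 13 line means, at 43.2 CPM, while the 11 lines other than Col and SALK_070847C ranged from 79.1 to 98.7 CPM. The difference thus lay between Col and all the insertion lines.

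ARP9, an actin-related protein, showed the same layout in the other direction. It stood at 10.6, 8.56, 6.57 and 6.70 CPM in SALK_070847C, against 17.2, 16.5, 10.66 and 11.6 CPM in Col (log2 change -0.83 ± 0.18, adjusted p = 0.0363). The other 7 SALK lines had a median of 7.49 CPM, and Col was the highest of the 13 line means at 14.0 CPM. This call rested on the choice of libraries: it was lost without any of replicates 2, 3 and 4 of SALK_070847C or replicates 1 and 2 of Col, with adjusted p between 0.105 and 0.33.

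AT5G35935, typed as a pseudogene in the annotation with the product given as an uncharacterized protein, stood at 12.9, 9.79, 4.93 and 6.97 CPM in SALK_070847C, against 3.73, 2.62, 3.20 and 3.33 CPM in Col (log2 change 1.38 ± 0.25, adjusted p = 0.00149). The other 7 SALK lines were higher still, from 8.42 through 13.01 to 20.1 CPM, and the log2 change against them was -0.62 ± 0.18 (adjusted p = 0.416). Among the 13 line means Col ranked 4 and SALK_070847C ranked 6 from the lowest, and GABI_699B09 was the lowest at 0.304 CPM. BGLU40, a further beta-glucosidase gene, lay under the 5 CPM asked of genes to be named and is given because it completes the 7. It stood at 2.78, 2.29, 2.02 and 2.46 CPM in SALK_070847C, against 0.479, 0.675, 1.199 and 1.06 CPM in Col (log2 change 1.51 ± 0.30, adjusted p = 0.0103). Col was the lowest of the 13 lines for BGLU40, and the log2 change against the other 7 SALK lines was 0.54 ± 0.21 (adjusted p = 1). The BGLU40 call was lost without replicate 4 of SALK_070847C or replicates 1 or 2 of Col (adjusted p between 0.0614 and 0.206).

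**Figure D3:**
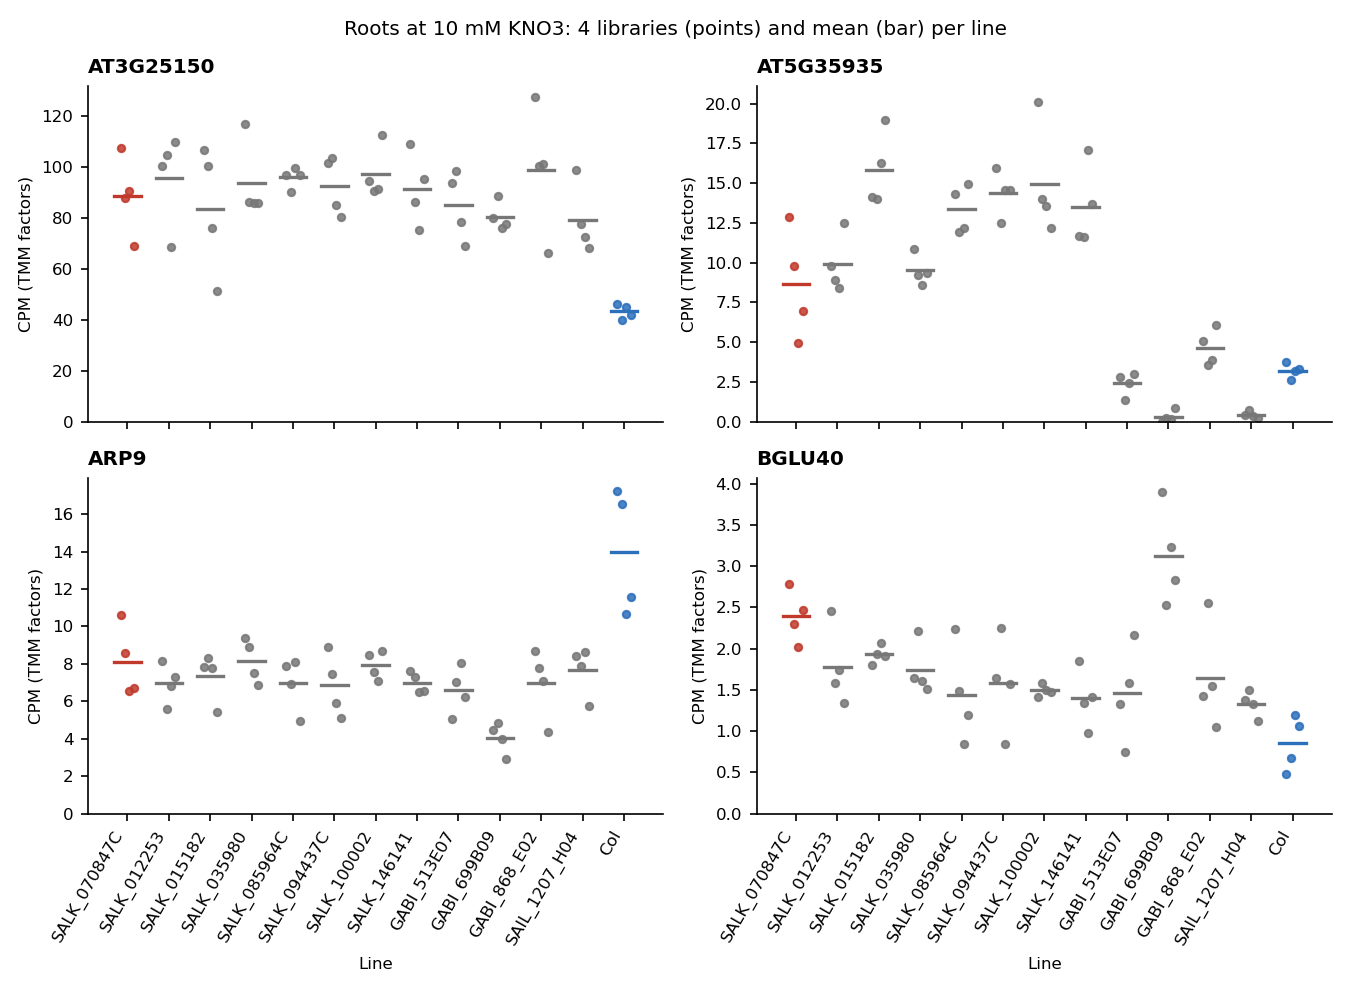
CPM (linear axes from 0) of AT3G25150, AT5G35935, ARP9 and BGLU40 at 10 mM KNO3 for each of 13 lines, drawn as points (4 libraries) and bars (mean), with SALK_070847C in red at the left and Col in blue at the right. For AT3G25150 the Col mean of 43.2 CPM is the lowest and for ARP9 the Col mean of 14.0 CPM is the highest. In both the red bar lies among the grey bars, but the ARP9 red point at 10.6 CPM lies above all points of the other 7 SALK lines.

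The rest of the RAV family did not pass the test. Of its 10 listed members, 5 could be tested and RAV2 alone was called. TEM1 stood at 11.4, 14.4, 7.84 and 9.44 CPM in SALK_070847C, against 8.52, 7.51, 6.53 and 10.1 CPM in Col (log2 change 0.39 ± 0.27, adjusted p = 0.829), and the groups overlapped. EDF3 stood at 14.9, 9.79, 12.5 and 9.44 CPM in SALK_070847C, against 9.09, 8.36, 4.66 and 6.92 CPM in Col. All 4 EDF3 values of the line lay above those of Col, but with a log2 change of 0.64 ± 0.33 (adjusted p = 0.718) the gene did not pass. The EDF3 log2 change was 0.54 ± 0.25 against the other 7 SALK lines and 0.78 ± 0.29 against Col at 1 mM, without a call in either. SALK_070847C had the highest of the 13 line means for TEM1 and EDF3 at both concentrations. RAV1 varied most between libraries, with 26.8, 42.5, 25.3 and 30.9 CPM in SALK_070847C and 25.5, 46.0, 10.9 and 40.6 CPM in Col, and its log2 change was 0.02 ± 0.33. NGA3 averaged 0.934 ± 0.226 CPM in SALK_070847C and 1.49 ± 0.440 CPM in Col (SD, n = 4 each; log2 change -0.72 ± 0.39, adjusted p = 0.748). The 95% intervals of TEM1 (-0.15 to 0.92), EDF3 (0.00 to 1.29) and RAV1 (-0.61 to 0.66) leave room for sizeable changes in these relatives. The 5 untested members, AT1G50680, AT1G51120, NGA1, NGA2 and NGA4, had between 0 and 6 counts summed over the 4 libraries of either group.

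Genes that studies of other tissues tie to RAV factors also showed no called change. Of 15 listed, 10 could be tested, none was called, and their median log2 change was 0.20. GA3OX1, a target of TEM1 and TEM2 in leaves that makes bioactive gibberellin, averaged 21.1 CPM in SALK_070847C and 24.1 CPM in Col, with a log2 change of -0.17 ± 0.23. GA3OX2 averaged 72.9 CPM in SALK_070847C and 50.3 CPM in Col (log2 change 0.54 ± 0.28, adjusted p = 0.725). FT, the flowering signal, had 3 counts in all 4 libraries of SALK_070847C together and 0 in those of Col, too few to test. None of the 18 gibberellin genes, 8 flowering-time genes or 22 ethylene genes tested passed, and their median log2 changes were -0.01, 0.00 and -0.18. In the ethylene list the receptor gene ETR2 had the largest fall, averaging 15.4 CPM in SALK_070847C and 25.7 CPM in Col (log2 change -0.74 ± 0.22, adjusted p = 0.344).

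Around RAV2 on the chromosome, 1 neighbour was called in some of the comparisons. STN7, which lies next to RAV2 and is transcribed away from it on the opposite strand, encodes the thylakoid kinase that phosphorylates light-harvesting proteins. It stood at 17.5, 15.0, 21.5 and 22.4 CPM in SALK_070847C, against 9.09, 11.1, 14.4 and 11.3 CPM in Col, and the groups did not overlap. Against Col the log2 change of 0.75 ± 0.19 did not pass (adjusted p = 0.203). Against the other 7 SALK lines, which ran from 7.44 through 10.33 to 16.9 CPM, it was 0.87 ± 0.14 and passed (adjusted p = 2.63e-05), as did the rise against Col at 1 mM of 0.84 ± 0.18 (adjusted p = 0.0201). The call at 1 mM was lost without replicate 3 or 4 of SALK_070847C or replicate 1, 3 or 4 of Col (adjusted p between 0.0549 and 0.125), while that against the 7 lines held with each replicate of SALK_070847C left out. SALK_070847C had the highest of the 13 line means, at 19.1 CPM, and no other line exceeded 11.6 CPM. None of the other 9 tested genes among the 5 on either side passed in any of these comparisons: CLE12, AT1G68810, AT1G68820, RTFL15, AT1G68850, AT1G68862, AT1G68872, AT1G68880 (basic leucine-zipper 8) and PHYLLO. Among them AT1G68872 at 0.62 ± 0.28 and AT1G68880 at 0.55 ± 0.25 had the largest log2 changes against Col (adjusted p = 0.689 and 0.691).

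**Figure D4:**
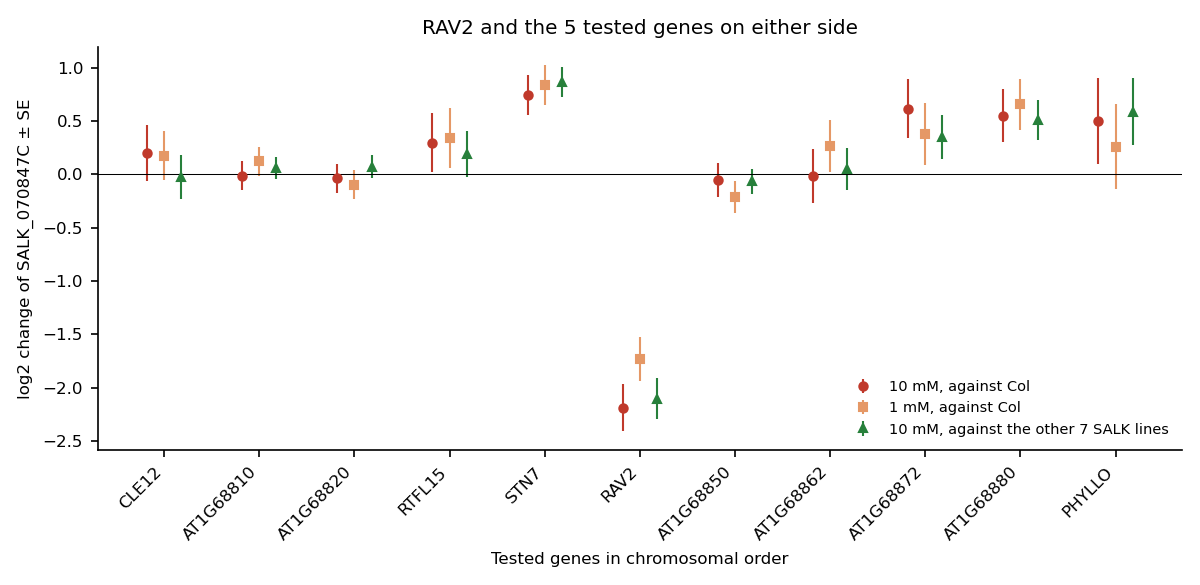
Log2 change ± SE (vertical) of RAV2 and the 5 tested genes on either side in chromosomal order (horizontal, not to distance), for SALK_070847C against Col at 10 mM (red circles) and 1 mM (orange squares), and against the other 7 SALK lines at 10 mM (green triangles). RAV2 lies between -2.19 and -1.73 and STN7 between 0.75 and 0.87.

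Against the other 7 SALK lines at 10 mM, 18 of 19664 genes were called (0.0915%), 13 higher in SALK_070847C and 5 lower, and 736 (3.74%) had an unadjusted p under 0.05. Both comparisons at 10 mM use the same 4 libraries of SALK_070847C, so their signs are not independent. The share of all genes with the same sign in both was not counted. Of the 18, 17 had the same sign against Col. The exception, AT5G61590, encodes an ERF-type transcription factor and shows what a single line in the reference can do. It stood at 105.0, 141.9, 123.5 and 136.6 CPM in SALK_070847C and averaged 197.7 CPM in Col, and the rise of 0.58 ± 0.12 against the 7 lines (adjusted p = 0.0106) came with a mean of 2.28 CPM in SALK_015182. With that line left out of the mean the log2 change was -0.29 (adjusted p = 1), and the call was also lost without any of replicates 2, 3 and 4 of SALK_070847C (adjusted p between 0.0556 and 0.264).

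Another 2 calls depended on 1 line in the same way. LBD4, a LOB-domain regulator, averaged 32.1 ± 9.59 CPM in SALK_070847C, 22.2 ± 6.42 CPM in Col (SD, n = 4 each) and 0.522 CPM in SALK_146141. Its rise of 1.16 ± 0.22 against the 7 lines (adjusted p = 0.00223) was 0.37 without SALK_146141 (adjusted p = 1). AT1G76510, an ARID-domain DNA-binding protein, averaged 13.2 CPM in SALK_070847C, 12.9 CPM in Col and 1.13 CPM in SALK_035980, and its rise of 0.65 ± 0.11 (adjusted p = 5.63e-05) was 0.16 without SALK_035980 (adjusted p = 1). The replicate 3 libraries of SALK_035980 and SALK_085964C come in files that carry the name of the other line, and with these 2 libraries exchanged the AT1G76510 call was lost (0.42, adjusted p = 1). As labelled they stood at 0.804 and 12.2 CPM, each beside the other 3 libraries of its labelled line (0.894 to 1.84 CPM in SALK_035980 and 10.82 to 14.03 CPM in SALK_085964C). AT5G08250, a cytochrome P450 gene, averaged 8.56 CPM in SALK_070847C and 8.03 CPM in Col, while 3 of the 7 lines lay under 4 CPM, so its rise of 0.90 ± 0.15 against the 7 lines (adjusted p = 1.75e-04) had no counterpart against Col (0.06 ± 0.20). The LBD4 call was also lost without replicate 4 of SALK_070847C (adjusted p = 0.252) and that of AT5G08250 without replicate 3 (adjusted p = 0.0894).

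The remaining genes that rose against the 7 lines had the same sign against Col, though none passed the test there. Both comparisons share the 4 libraries of SALK_070847C. MSL5, named as a mechanosensitive channel of small conductance, stood at 20.5, 27.8, 25.8 and 23.5 CPM in SALK_070847C, against 13.3, 17.2, 16.7 and 14.6 CPM in Col. It rose by 0.60 ± 0.14 against the 7 lines (adjusted p = 0.0371), and its log2 change against Col was 0.67 ± 0.19 (adjusted p = 0.28). LSH7, of the LIGHT-DEPENDENT SHORT HYPOCOTYLS family of developmental regulators, stood at 17.5, 15.4, 24.6 and 18.1 CPM in SALK_070847C, against 10.1, 9.79, 16.8 and 12.5 CPM in Col, and rose by 0.66 ± 0.14 against the 7 lines (adjusted p = 0.0145). SALK_070847C had the highest of the 13 line means for both genes. AT2G33620, an AT-hook DNA-binding protein named like AT5G61590 to complete the 18, stood at 58.7, 71.7, 66.9 and 63.6 CPM in SALK_070847C, against 42.9, 54.9, 41.2 and 44.7 CPM in Col, and rose by 0.46 ± 0.10 against the 7 lines (adjusted p = 0.0158). The MSL5 call was lost when SALK_012253, SALK_035980 or SALK_085964C was left out of the mean (adjusted p = 0.061, 0.102 and 0.0511), and that of AT2G33620 when SALK_146141 was (adjusted p = 0.106). Both calls were also lost without any of replicates 2, 3 and 4 of SALK_070847C (adjusted p between 0.156 and 0.67 for MSL5 and between 0.0981 and 0.481 for AT2G33620). The LSH7 call was lost without replicate 3 or 4 (adjusted p = 1 and 0.0774).

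Below 5 CPM, where calls rest on few tags, 5 more genes were called, named here only to complete the 18. AT3G29140 and AT3G29120 on chromosome 3 averaged 1.01 and 0.267 CPM in SALK_070847C, and in the other 7 SALK lines they averaged 4.55 and 1.95 CPM. They were lower by log2 changes of -2.12 ± 0.29 and -2.59 ± 0.39 (adjusted p = 3.5e-07 and 5.86e-06). Every library of the line lay below every library of Col and of the 7 lines for both. Col averaged 2.46 and 0.852 CPM, less than the mean of each of the 7 lines. AT3G29120 was listed at 0 in GABI_699B09, so its low level was not particular to SALK_070847C. For AT3G29140 the line had the lowest of the 13 line means. The non-coding RNA AT2G01422, scpl10 and AT1G52220 rose by 2.66, 1.33 and 1.21 against the 7 lines, the calls of scpl10 and AT1G52220 being lost without replicate 2 or 4 of SALK_070847C (adjusted p between 0.0928 and 0.919). The lines GABI_868_E02, SAIL_1207_H04 and GABI_513E07 had more AT2G01422 than SALK_070847C did, up to 6.99 CPM.

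Several of these genes encode chloroplast proteins. LHCB3, an antenna protein of photosystem II, stood at 9.61, 18.2, 12.8 and 16.7 CPM in SALK_070847C, against 7.75, 11.1, 8.79 and 5.98 CPM in Col. It rose by 0.88 ± 0.20 against the other 7 SALK lines (adjusted p = 0.032), and its log2 change against Col was 0.77 ± 0.27 (adjusted p = 0.559). PSBTN, a small subunit of photosystem II, stood at 5.06, 11.9, 6.95 and 10.9 CPM in SALK_070847C, against 1.82, 5.06, 4.93 and 2.93 CPM in Col, with a rise of 1.101 ± 0.25 against the 7 lines (adjusted p = 0.032). AT1G52220 encodes a thylakoid protein of the CURVATURE THYLAKOID family, and STN7 acts in the same membranes. The LHCB3 call was lost without SALK_012253, SALK_094437C or SALK_146141 in the mean (adjusted p = 0.105, 0.0764 and 0.0788) and the PSBTN call without SALK_035980, SALK_094437C or SALK_146141 (adjusted p = 0.0974, 0.0764 and 0.0788). Both were also lost without any of replicates 2, 3 and 4 of SALK_070847C (adjusted p between 0.0556 and 0.67).

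The list of photosynthetic tissue markers leaned the same way. Of 18 listed, 15 could be tested, and LHCB3 against the 7 lines was the only one called. Against Col 14 of the 15 log2 changes were above 0, their median was 0.81 beside -0.01 over all genes, and 8 had an unadjusted p under 0.05 on the higher side, which 3.02% of all genes had. Against the other 7 SALK lines the median was 0.67 and 12 had an unadjusted p under 0.05 on the higher side, against 1.96% of all genes. PSAD1, a subunit of photosystem I, was chosen after its values were seen. PSAD1 stood at 16.4, 29.2, 12.4 and 24.5 CPM in SALK_070847C, against 6.13, 12.7, 7.33 and 7.85 CPM in Col (log2 change 1.27 ± 0.31, adjusted p = 0.166), and the groups overlapped by 1 library. RBCS1A, a small subunit of Rubisco, averaged 37.3 CPM in SALK_070847C and 20.3 CPM in Col (log2 change 0.89 ± 0.28, adjusted p = 0.439). PSBO1, of the oxygen-evolving complex, averaged 53.1 CPM in SALK_070847C and 53.0 CPM in Col (log2 change 0.01 ± 0.18). Among the 13 line means at 10 mM, SALK_070847C was the highest for LHCB3 and PSAD1. For PSAD1 it averaged 20.6 CPM, SALK_015182 was next at 16.8 CPM, and Col ranked 3 from the lowest. PSAL, a photosystem I subunit outside the list chosen after its values were seen, averaged 17.3 CPM in SALK_070847C and 17.9 CPM in SAIL_1207_H04. At 1 mM the list leaned the same way against Col: all 15 tested log2 changes were above 0, as were 50% of all genes. Their median at 1 mM was 0.88, and none was called there.

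Summed over the list, the level was 155.3, 300.9, 203.2 and 269.0 CPM in SALK_070847C, against 124.6, 210.6, 164.3 and 136.1 CPM in Col. The other 7 SALK lines ran from 108.9 through 151.6 to 231.0 CPM. Replicates 2 and 4 of the line stood above all of these libraries, and replicates 1 and 3 lay within their range. Replicate 1 of the line and replicate 2 of Col are the only pair of libraries that share the number after "str" in their titles, described at the end, and between these 2 the list ran the other way: 13 of its 15 log2 ratios were below 0 and their median was -0.45. Of the untested members, RBCS1B had no count in either group, RBCS2B had 9 counts in SALK_070847C and 3 in Col, and PRK had 11 in SALK_070847C and 7 in Col. Whether shoot or greening tissue in the root samples had a part in the rises of LHCB3, PSBTN, AT1G52220 and STN7 was not tested.

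**Figure D5:**
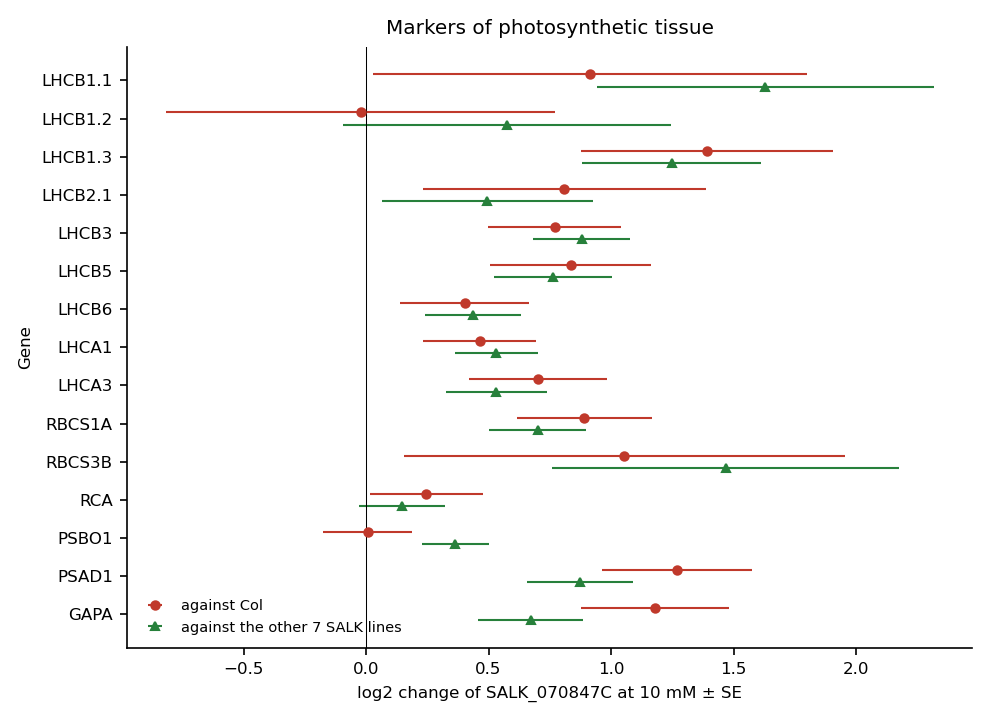
Log2 change ± SE (horizontal) of SALK_070847C at 10 mM for the 15 tested markers of photosynthetic tissue, against Col (red circles) and against the other 7 SALK lines (green triangles). Most markers lie above 0, with medians of 0.81 and 0.67, and only LHCB3 against the 7 lines passed the threshold; both comparisons use the same 4 libraries of SALK_070847C.

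At 1 mM KNO3 the line was compared with Col in 8 libraries that the 10 mM comparison does not use. There, 40 of 19664 genes were called (0.203%), 22 higher and 18 lower, and 2121 had an unadjusted p under 0.05. With 1 library left out this count ran from 10, without replicate 1 of SALK_070847C or replicate 3 of Col, to 78, without replicate 1 of Col. RAV2 stood at 10.1, 11.3, 10.82 and 12.5 CPM in SALK_070847C, against 39.0, 34.5, 38.5 and 37.0 CPM in Col (log2 change -1.73 ± 0.21, adjusted p = 3.78e-09). BGLU34 stood at 6.42, 3.37, 3.41 and 2.62 CPM in SALK_070847C, against 47.0, 42.1, 27.2 and 37.4 CPM in Col (log2 change -3.31 ± 0.25, adjusted p = 7.17e-18). AT1G08040 was lower by -1.12 ± 0.12 on the log2 scale (adjusted p = 4.46e-11). All 7 genes called at 10 mM had the same sign at 1 mM, and 5 were called there too: these 3, AT3G25150 (1.61 ± 0.17, adjusted p = 2.12e-11) and AT5G35935 (1.43 ± 0.25, adjusted p = 3.26e-04). BGLU40 and ARP9 were not (adjusted p = 0.0991 and 0.229).

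Of the 40 genes called at 1 mM, 37 (92.5%) had the same sign at 10 mM, as had 59.4% of all genes tested. From the lists, the nitrate-induced repressor LBD38 was 0.74 ± 0.16 higher in SALK_070847C on the log2 scale at 1 mM (adjusted p = 0.0201), and PHO1;H1, a relative of the phosphate exporter PHO1 that lies on the STN7 side of RAV2 beyond the 5 tested neighbours, was 1.39 ± 0.30 higher (adjusted p = 0.0201). At 10 mM neither passed, with log2 changes of 0.18 and 0.15.

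The difference between the line effects at 10 and 1 mM was tested directly and no gene passed (edgeR, smallest adjusted p = 0.212; 863 genes or 4.39% with an unadjusted p under 0.05; DESeq2 and limma-voom called 0 as well). For RAV2 the log2 effect at 10 mM minus that at 1 mM was -0.46 ± 0.30, for BGLU34 0.22 ± 0.37, and for AT1G08040 -0.02 ± 0.17. AT1G72820, a mitochondrial carrier, had the smallest p at 0.77 ± 0.16, with a log2 change against Col of 0.39 at 10 mM and of -0.38 at 1 mM. The next were AT5G49840 (a Clp protease by annotation) at -0.77 ± 0.19, AT5G45095 at 1.03 ± 0.26 and AT5G08360 at -1.40 ± 0.35 (adjusted p = 0.697 each). With 1 library left out, AT1G72820 was called without replicate 2 of either group at 1 mM or of Col at 10 mM (adjusted p between 0.00686 and 0.0356), and AT5G08360 without replicate 2 of SALK_070847C at 10 mM (adjusted p = 0.0215).

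The nitrogen genes that the series is about showed no called change in the line at 10 mM. None of the 11 high-affinity uptake genes, 10 other nitrate transport genes, 13 genes of nitrate reduction and reductant supply, 16 genes of ammonium assimilation or 20 nitrate-responsive regulators passed. NRT2.1, the main high-affinity nitrate transporter of roots, averaged 328.7 CPM in SALK_070847C and 329.1 CPM in Col (log2 change 0.00 ± 0.16). Its partner protein NRT3.1 averaged 197.7 CPM in SALK_070847C and 199.1 CPM in Col (log2 change -0.01 ± 0.20). The median log2 changes of the 5 lists lay between -0.18 and 0.13. Over all 32 lists, 371 of 415 members could be tested, and RAV2 was the only one called against Col at 10 mM. The lists for cytokinin, auxin, jasmonate, abscisic acid, flavonoids, low oxygen, sulfate, phosphate, iron, the clock, immunity, handling stress and root cell types held no call, with median log2 changes between -0.13 and 0.27. The 2 seed markers tested summed to 0.885 CPM or less in these libraries and were not called.

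The titles carry a further number after "str", whose meaning the labels do not give. At 10 mM SALK_070847C has the numbers 5, 6, 11 and 13 and Col has 4, 5, 10 and 12, so only number 5 holds both groups, with 1 library of each. Within it the log2 ratio of SALK_070847C to Col was -2.11 for RAV2, -2.60 for BGLU34, -1.25 for AT1G08040 and -0.64 for ARP9. It was 1.43 for AT3G25150, 2.302 for AT5G35935, 2.04 for BGLU40 and 0.65 for STN7. The groups of these genes did not overlap, so any pair of libraries has the sign of the whole comparison, and this pair adds no check of it. Of the chloroplast genes, LHCB3 and PSBTN did not keep that sign. Their ratios were -0.21 and -0.0012, where the whole comparison had 0.77 and 1.26. PSAD1 kept it, with a ratio of 0.38. AT1G52220, whose groups did not overlap either, had a ratio of 0.71. With this number as a term in the fit of all libraries, 8 genes were called against Col, and all 7 above were among them.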

How the data were processed

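Transcript tags were counted in Arabidopsis root libraries, made by the BRAD-seq DGE method per the labels' protocols. The deposited files hold whole-number counts per locus as the authors made them; the submitters' processing notes name limma, HTSeq, SAMtools, Bowtie and FastQC, with TAIR10 as the build, and versions, roles and a strand setting are not given in the sources used here, so overlapping, antisense and near-identical genes are uncertain. Names came by locus tag from an annotation of TAIR10.1 (32835 of 33323 nuclear loci matched), which also gave gene order and strand but no coordinates.

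Both runs of a library were summed. The 279 organelle loci, all at 0 in run 2, were not tested. Counts were tested with edgeR 4.0.16 in R 4.3.3: a filter on low counts (filterByExpr by group, minimum 10), scaling by TMM, then 1 quasi-likelihood fit of every library of the series with 26 group means, and p-values adjusted by Benjamini-Hochberg across 19664 genes. Genes with an adjusted p under 0.05 are called. Fitted log2 changes carry the standard error of the model, and 95% intervals use the normal quantile. The code was tested on simulated data. Libraries of a group differed by a chi-square per degree of freedom of 5.66 or more, so none were exact copies. Tags carry no molecular identifiers in the files, so depth overstates independent molecules. Replicates are separate pairs of plates.

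Named by rule were genes called against Col whose higher group averaged 5 CPM or more. So were the 8 largest rises and falls against the other 7 SALK lines, RAV family members and 5 tested genes either side of RAV2. Called list members and the 4 genes with the smallest p for the difference between concentrations were too. Other genes complete a count, mark the range of a list or were picked with their values known, which the text does not say in each case. The members, lists and this rule were chosen with earlier results of these data known. Planned motif counts in promoters were not run, because no promoter sequences of the files' build were used here. Alternatives were RLE and upper quartile factors, DESeq2 1.42.0, limma-voom (limma 3.58.1), no filter on low counts, fewer libraries in the fit, the str number or replicate number as terms, each run alone, exchanged or left-out libraries whose file names carry another line, each of the 7 lines left out, and each replicate left out.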

Additional observations from a re-analysis of the deposited data

Results flagged for a closer look

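Among 29 genes named above, each group of 4 libraries at 10 mM was checked for a single library far from the rest, by its gap to the nearest other library as a share of the whole range. Chance passes this in about 1 of 20 groups, and 58 groups were checked. In SALK_070847C, CLE12 stood at 4.103 CPM in replicate 4 and between 2.401 and 2.53 CPM in the others (gap 0.924 of the range). AT1G68820 stood at 14.9 CPM in replicate 1, the shallowest library, and between 21.2 and 22.2 CPM in the others (0.872). AT1G68862 stood at 3.56 CPM in replicate 4 and between 4.42 and 4.55 CPM in the others (0.869). All 3 are neighbours of RAV2 that were not called in any comparison.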

How the results depend on the processing

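Against Col at 10 mM the count of 7 called genes stayed between 5 and 8 with other scaling factors, DESeq2, limma-voom, no filter, run 2 alone, the 10 mM libraries alone or the str number as a term. It was 4 with run 1 alone and 4 with only the compared groups in the fit. RAV2, BGLU34, AT1G08040 and AT3G25150 were called in all 19 alternatives against Col, AT5G35935 in 16, BGLU40 in 12 and ARP9 in 8. Leaving out each replicate gave between 5 and 10 calls. Against the other 7 SALK lines the count of 18 was 4 with run 1 alone and 9 with run 2 alone. It lay between 10 and 20 with each replicate of SALK_070847C left out: 11 without replicate 2 and 10 without replicate 4. It lay between 14 and 21 with each of the 7 lines left out of the mean. The rise of AT5G61590 turned to -0.29 without SALK_015182. At 1 mM the count of 40 was the least stable: 94 with DESeq2, 22 without a filter, 819 with the str number as a term, 5 with run 1 alone, 13 with run 2 alone, 6 with only the compared groups, and between 10 and 78 with each replicate left out. In SALK_070847C it was 10, 12 and 26 without replicates 1, 2 and 3, and in Col it was 78, 22, 10 and 19 without replicates 1 to 4 in turn. For the difference between concentrations 2 genes were called with the str number as a term, and between 0 and 1 with each replicate left out. With the str number as a term, BGLU40 passed at 1 mM (adjusted p = 0.0269), and the calls of MSL5 and AT2G33620 against the 7 lines were lost (adjusted p = 0.094 and 0.0836). With DESeq2 the PSBTN call against the 7 lines and the BGLU40 call against Col at 10 mM were lost (adjusted p = 0.0889 and 0.0535). The causes were not tested.

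With the replicate number within each concentration as a block, 24 genes were called against Col at 10 mM (all 7 among them), 26 against the other 7 SALK lines, 239 at 1 mM and 0 for the difference. STN7 then passed against Col at 10 mM, at 0.76 (adjusted p = 0.0189), and at 1 mM BGLU40 and ARP9 passed, at 0.91 and -0.51 (adjusted p = 0.0496 and 0.0454). The numbers are not shown to pair the libraries: at 10 mM deviations of same-numbered libraries correlated between 0.03 and 0.19, and 3 of 4 libraries of SALK_070847C correlated best with the Col library of their own number.

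With 4 libraries a group and totals from 3981966 counts, genes of few tags could not be judged, and changes that missed the threshold are not shown to be absent.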
